A study of Mus musculus with 15 samples.

Results

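The MHC class II genes and their transcriptional activator Ciita were followed as 10 genes: the chain genes H2-Aa, H2-Ab1 and H2-Eb1, the H2-DM genes H2-DMa, H2-DMb1 and H2-DMb2, the H2-DO genes H2-Oa and H2-Ob, the invariant chain gene Cd74, and Ciita. They were found by the gene names that the scanner files give to the probes, which gave 19 probes out of the 56504 used, and 9 of the 10 genes could be tested among 22012. The exception was H2-DMb2, whose only probe was well above background on 1 of 15 arrays, that of filgotinib mouse 3. The arrays measured scraped mucosa from 30 mm of distal colon of female Balb/cJ mice, 1 mouse per array, with 5 mice in each of 3 groups. The mice were 8 weeks old when colitis was induced. The water group received drinking water, although its labels name a vehicle control as the compound, and whether these mice were dosed with vehicle is not given in the sources used here. Both other groups received 4% dextran sodium sulfate (DSS), which damages the lining of the colon when drunk, in 3 cycles of 4 days separated by washouts of 3 days. One of them was given the vehicle of the drug and the other was given filgotinib, an inhibitor that prefers the kinase JAK1, at 30 mg/kg by gavage once a day.

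MHC class II molecules are pairs of an alpha and a beta chain that carry peptides from ingested proteins to the surface of antigen-presenting cells, where CD4 T cells read them. The invariant chain fills the groove of a new molecule and guides it to endosomes, H2-DM exchanges the remaining invariant chain fragment for a peptide, and H2-DO restrains H2-DM. Ciita does not bind DNA itself: it is recruited by the RFX, CREB and NF-Y factors that sit on the X and Y boxes of class II promoters. Dendritic cells, macrophages and B cells express Ciita constitutively or on activation, and interferon gamma, which signals through JAK1 and JAK2, induces it in other cells, colon epithelium included.

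The stretches upstream of the members are shown because these boxes are the known shared feature of the family. The RefSeq promoter table (GRCm38.p6) held 8 starts of 7 members, H2-DMa having 2. H2-Ab1, Cd74 and Ciita had no entry. Each line below gives the bases from 130 to 31 before the start of transcription, 5′ to 3′ on the gene's strand, with capitals for matches to the Y box core ATTGG and to AGNAAC, the core used here for the X1 box, on either strand. The stretches of H2-Oa (chr17:34092249-34092348), H2-DMb2 (chr17:34145119-34145218), H2-DMb1 (chr17:34153061-34153160), H2-Ob (chr17:34238775-34238874) and H2-Eb1 (chr17:34305737-34305836) lie on the plus strand, as does that of the first H2-DMa start (chr17:34122702-34122801). The stretch of H2-Aa (chr17:34287854-34287953) lies on the minus strand.
H2-Aa: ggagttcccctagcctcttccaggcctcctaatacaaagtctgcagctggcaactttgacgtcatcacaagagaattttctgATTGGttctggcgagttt
H2-Eb1: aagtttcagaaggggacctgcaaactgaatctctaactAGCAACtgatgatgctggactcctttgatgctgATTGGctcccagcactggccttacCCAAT
H2-DMb1: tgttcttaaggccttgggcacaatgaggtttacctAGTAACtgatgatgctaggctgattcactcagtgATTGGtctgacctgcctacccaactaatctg
H2-DMb2: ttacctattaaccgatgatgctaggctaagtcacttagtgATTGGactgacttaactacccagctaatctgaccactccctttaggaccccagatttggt
H2-DMa: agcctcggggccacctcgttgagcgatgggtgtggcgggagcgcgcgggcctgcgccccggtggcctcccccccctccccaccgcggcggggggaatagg
H2-Oa: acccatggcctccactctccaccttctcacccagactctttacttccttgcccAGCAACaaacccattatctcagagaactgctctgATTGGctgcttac
H2-Ob: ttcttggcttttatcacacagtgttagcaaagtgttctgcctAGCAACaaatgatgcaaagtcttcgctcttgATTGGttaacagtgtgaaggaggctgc
In H2-Eb1, H2-DMb1, H2-Oa and H2-Ob an X1 core preceded a Y core on the gene's own strand, with 33, 34, 34 and 31 bases between their first letters. Such a pair at 31 to 34 bases, a spacing chosen after the members were seen, occurred in 36 of the 32851 upstream stretches of 250 bases in the table, or 0.11%. Single matches are common: the Y core was found in 33.8% and the X1 core in 42.3% of these stretches, and 14.5% held both. H2-Aa had a Y core at position -48 from its start and no match to the X1 core, H2-DMb2 had a Y core at position -90 and likewise no X1 core, and the first H2-DMa start had neither within 250 bases. The second H2-DMa start had a Y core at position -198. These matches are letters and not measured binding.

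The array reads each gene through probes of 60 bases. The probe of H2-Aa (mm9 chr17:34421285-34421344, minus strand) and the H2-Ab1 probe nearest the 5′ end of its transcript (mm9 chr17:34404357-34404416, plus strand) are shown as the letters that were measured.
H2-Aa: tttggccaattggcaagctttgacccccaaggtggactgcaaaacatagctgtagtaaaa
H2-Ab1: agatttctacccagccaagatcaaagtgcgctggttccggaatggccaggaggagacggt
A pair of H2-Ab1 probes near the 3′ end share 51 bases and differ there by 1 substitution, T51C, counted from 1 at the 5′ end of the first probe. Windows of these probes show it in capitals.
H2-Ab1 first: acaaataaacgagacTcagactctg
H2-Ab1 second: acaaataaacgagacCcagactctggttat
Their log2 fold changes between DSS vehicle and water were 1.23 and 1.29. The probes of all members follow the array's design sequences, and Balb/cJ mice carry a variant of the class II region that differs from the reference strain. The effect of mismatches on signal was not tested, so no level is compared between probes.

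Levels are given as log2 of the background-subtracted signal minus the array's 75th percentile, so 0 is the signal at that percentile. Between 52.4% and 63.8% of the non-control spots were well above background on an array, and none of these spots was saturated. Of the member probes, 10 were well above background on all 15 arrays and 4 on none. All 12 markers of colon epithelium tested were well above background on all arrays. The arrays lay on 6 slides, numbered here, that were scanned on 4 days: 3 water mice were on slide 1, 3 DSS vehicle mice shared slide 2 with 2 filgotinib mice, and slide 4 held 2 water mice and 1 DSS vehicle mouse. Slides 1, 3, 5 and 6 held mice of a single group each. Nothing in the labels says more of the mice than their group. The p-values set group differences against the spread within groups, and both can hold differences between slides as well as between mice.

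**Figure D1:**
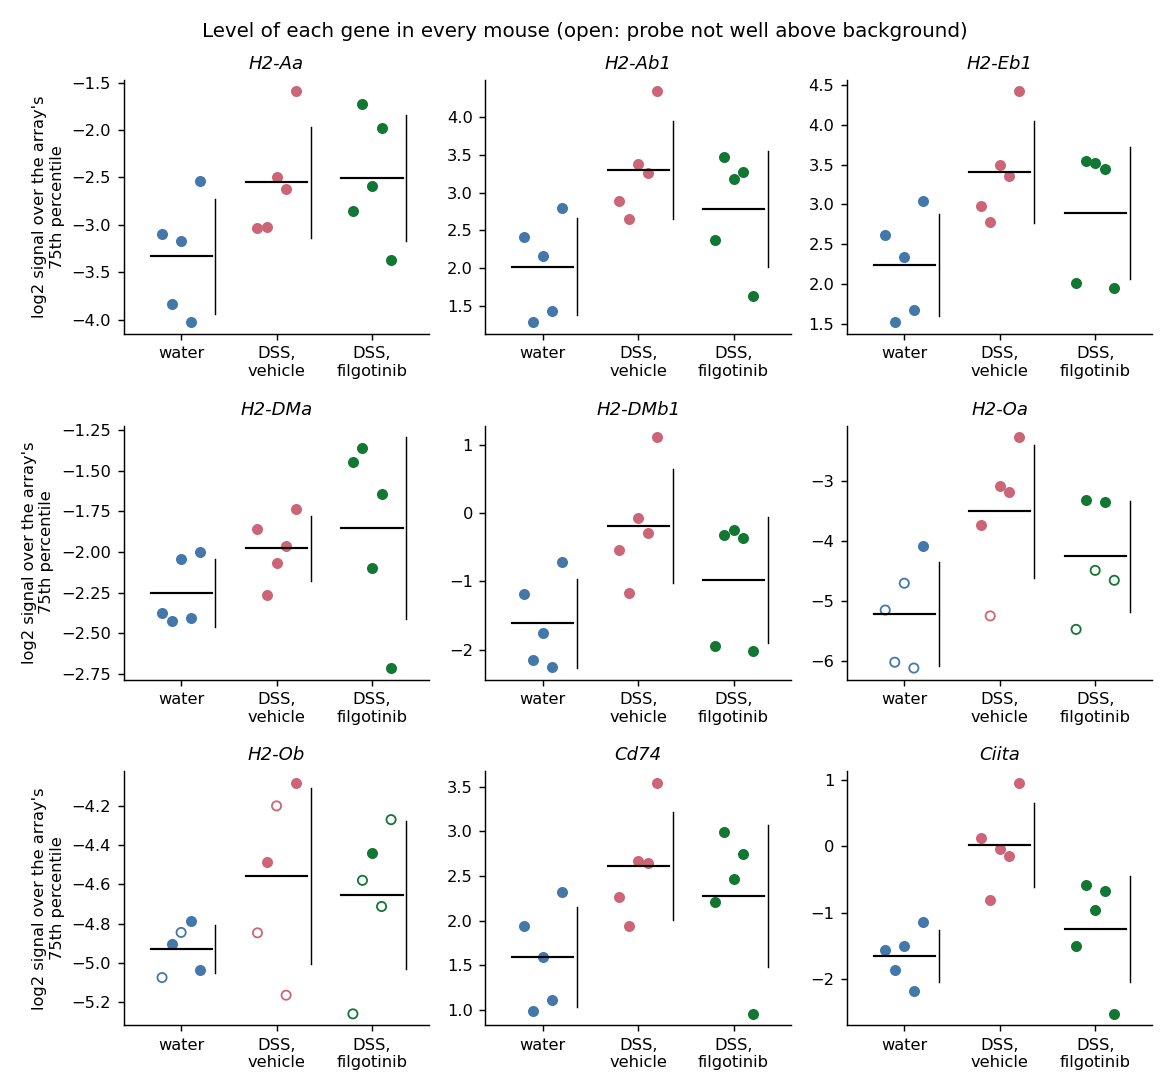
Level of each tested member in every mouse (vertical axis, log2 of signal over the array's 75th percentile; horizontal axis, group), with a bar for the group mean and a line beside it for 1 SD on either side (n = 5); open points are probes not well above background. Ciita is the member whose DSS vehicle mice all lie above all water mice, and its filgotinib mice lie lower again apart from 2 that lie above the lowest DSS vehicle mouse.

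The first comparison asks how 3 cycles of DSS changed the class II genes. Ciita rose 3.18-fold, H2-DMb1 2.69-fold and H2-Ab1 2.44-fold in DSS vehicle mice. H2-Oa also passed the test, but its signal was well above background on only 1 of 5 water arrays, so its fold is uncertain. The fold changes of the other 5 tested members, all upward, did not pass the test. Thus 4 of 9 tested members rose and 0 fell at an adjusted p under 0.05 (limma, Benjamini-Hochberg over all 22012 genes), where 10.8% of all genes rose and 8.41% fell. The median log2 fold change was 1.17 over the 9 members and 0.05 over all genes.

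Among the classical chains, H2-Ab1, the beta chain of the I-A molecule, had levels of 2.41, 1.29, 2.16, 1.44 and 2.79 in water mice 1 to 5 and of 2.89, 2.65, 3.38, 3.26 and 4.34 in DSS vehicle mice 1 to 5. The groups overlapped through water mouse 5, which exceeded DSS vehicle mouse 2, and DSS vehicle mouse 5 was the highest of all 15 mice. H2-Ab1 rose by 1.29 ± 0.40 on the log2 scale (SE, adjusted p = 0.0384). All 4 probes of H2-Ab1 were higher in DSS vehicle mice, by 0.93 to 1.29. H2-Eb1, the beta chain of the I-E molecule, ranged from 1.52 to 3.04 in water mice and from 2.78 to 4.42 in DSS vehicle mice, a log2 fold change of 1.17 ± 0.41 (adjusted p = 0.0619). H2-Aa, the alpha chain of I-A, ranged from -4.03 to -2.54 in water mice and from -3.04 to -1.59 in DSS vehicle mice, with a log2 fold change of 0.78 ± 0.36 (adjusted p = 0.145). Its interval, 0.00 to 1.56, includes the value found for its partner H2-Ab1. The alpha chain partner of H2-Eb1, listed under the pseudogene name H2-Ea-ps and outside the 10 members, had a log2 fold change of 0.59 ± 0.44 (adjusted p = 0.373).

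H2-DMb1, the beta chain of the peptide exchange factor, had levels of -1.18, -2.16, -1.76, -2.26 and -0.72 in water mice and of -0.53, -1.17, -0.07, -0.28 and 1.12 in DSS vehicle mice. Water mouse 5 lay above DSS vehicle mouse 2 and water mouse 1 just below it. H2-DMb1 rose by 1.43 ± 0.47 on the log2 scale (adjusted p = 0.0492). Its alpha chain partner H2-DMa stayed between -2.43 and -2.00 in water mice and between -2.26 and -1.74 in DSS vehicle mice. The log2 fold change of H2-DMa was 0.27 ± 0.22 (adjusted p = 0.398), with an interval of -0.19 to 0.74. This overlaps the interval of H2-DMb1, 0.41 to 2.44, and the difference between the partners was not tested.

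H2-Oa, the alpha chain of the H2-DM modulator, was dim. Its levels were -5.14, -6.01, -4.70, -6.11 and -4.08 in water mice, where mouse 5 alone had signal well above background. In DSS vehicle mice they were -3.72, -5.24, -3.08, -3.18 and -2.26, where mouse 2 lacked such signal and lay below 3 of the water mice. H2-Oa had a log2 fold change of 1.71 ± 0.57 (adjusted p = 0.0483), which rests on water signals mostly not above background. For H2-Ob, its beta chain, 3 water, 2 DSS vehicle and 1 filgotinib array were well above background, and the log2 fold change was 0.37 ± 0.21 (adjusted p = 0.217). At these signals a change in H2-Ob is poorly measured.

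Cd74, the invariant chain, had levels of 1.94, 0.99, 1.59, 1.11 and 2.32 in water mice and of 2.26, 1.94, 2.66, 2.64 and 3.54 in DSS vehicle mice. Water mouse 5 lay above DSS vehicle mice 1 and 2. Its log2 fold change was 1.02 ± 0.39 (adjusted p = 0.0786).

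Ciita, the activator, was the 1 tested member whose groups did not overlap. Its levels were -1.56, -1.86, -1.51, -2.18 and -1.13 in water mice and 0.12, -0.81, -0.03, -0.15 and 0.96 in DSS vehicle mice. Every DSS vehicle mouse lay above every water mouse, as was the case for 9.84% of all genes. Ciita rose by 1.67 ± 0.37 on the log2 scale (adjusted p = 0.00749, interval 0.88 to 2.46). The representative probe lies at mm9 chr16:10526458-10526517 on the plus strand. Of the other 3 Ciita probes, 1 was well above background on all water and DSS vehicle arrays and had a log2 fold change of 0.67 (adjusted p over probes 0.0446). Another was well above background on 4 DSS vehicle, 1 water and 0 filgotinib arrays, so that its values give no support. The third was not well above background on any array.

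The call of Ciita was kept when any single mouse was left out, whereas the other 3 calls lay close to the threshold. H2-Ab1 no longer passed if 1 of water mice 2, 3 and 4 or of DSS vehicle mice 1, 3, 4 and 5 was removed, with adjusted p up to 0.0958. H2-DMb1 failed if 1 of water mice 1 to 4, of DSS vehicle mice 1, 3, 4 and 5 or filgotinib mouse 2 was removed (adjusted p up to 0.117). H2-Oa failed on removal of any of these water and DSS vehicle mice or of filgotinib mouse 3 or 5 (adjusted p up to 0.117). In the other direction, H2-Eb1 passed without water mouse 5 (adjusted p = 0.0474) and Cd74 without filgotinib mouse 5 (adjusted p = 0.0351).

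**Figure D2:**
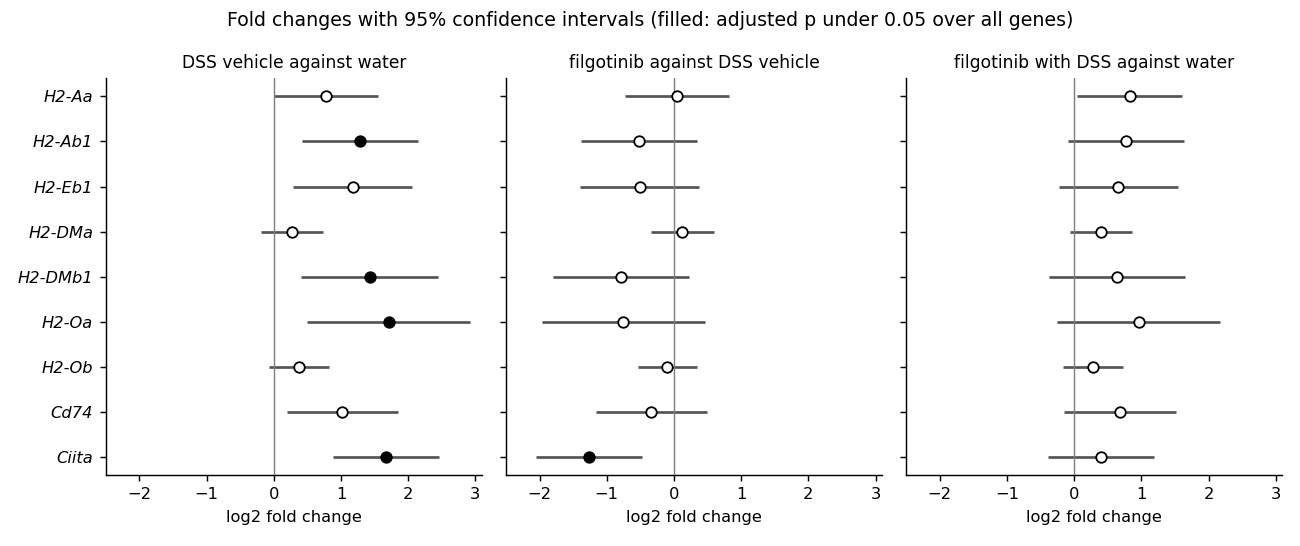
Log2 fold change of each tested member (horizontal axis) in the 3 comparisons, with 95% confidence intervals from the fit over 15 arrays; filled points passed an adjusted p under 0.05. In DSS vehicle against water 4 points are filled and all 9 lie above 0, in filgotinib against DSS vehicle Ciita alone is filled at -1.27, and in filgotinib against water none is filled.

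Batches could be compared within scan day 1 and within slide 4. Among the arrays of scan day 1, with 3 DSS vehicle against 3 water mice, all 9 members were higher in DSS vehicle mice, with a median difference of 1.65, from 0.23 for H2-Ob to 2.18 for Ciita when H2-Oa, not well above background on these water arrays, is set aside. The water arrays among them lay on slide 1 and the DSS vehicle arrays on slide 2, so slide and group cannot be told apart there. On slide 4, with DSS vehicle mouse 2 against water mice 3 and 5, 5 of 9 members were higher, with a median of 0.07 and a highest value of 0.51 (Ciita). The lowest was that of H2-Oa, which was not well above background in DSS vehicle mouse 2. DSS vehicle mouse 2 was the lowest DSS vehicle mouse for H2-Ab1, H2-Eb1, H2-DMb1, H2-Oa, Cd74 and Ciita, and water mouse 5 the highest water mouse for all of them. With the slide as a fixed block, which leaves slide 4 as the source of this comparison, Ciita had a log2 fold change of 0.51 (adjusted p = 0.795) and H2-Aa, H2-DMa, H2-Oa and Cd74 were below 0. With the scan day as a block it had 1.67 (adjusted p = 0.0275), and H2-Ab1 had 1.29 (adjusted p = 0.0873).

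**Figure D3:**
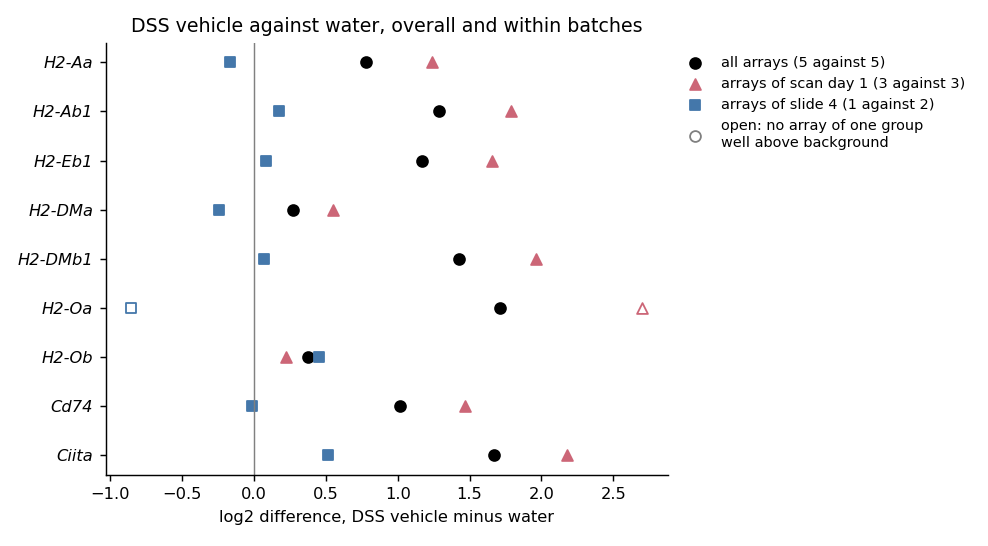
Log2 difference between DSS vehicle and water mice (horizontal axis) for each tested member over all arrays, within scan day 1 (3 against 3) and within slide 4 (1 against 2); open symbols are values where no array of one group was well above background. All values within scan day 1 are positive, with 2.18 for Ciita, and those within slide 4 lie on both sides of 0, with 0.51 for Ciita.

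The second comparison asks what filgotinib did in mice given DSS. Ciita fell 2.41-fold in filgotinib mice compared with DSS vehicle mice, and no other tested member passed the test. Thus 1 of 9 tested members fell and 0 rose, where 4.53% of all genes fell and 6.79% rose, and Ciita was also the 1 member with an unadjusted p under 0.05. The median log2 fold change was -0.51 over the members and 0.00 over all genes.

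Ciita had levels of -1.50, -0.59, -0.96, -0.68 and -2.53 in filgotinib mice 1 to 5. Of these, 3 lay below every DSS vehicle mouse, while mice 2 and 4 lay above DSS vehicle mouse 2 at -0.81. The fitted log2 fold change was -1.27 ± 0.37 (adjusted p = 0.0418, interval -2.06 to -0.47). Another Ciita probe had a log2 fold change of -1.12 (adjusted p over probes 0.00735), with all DSS vehicle arrays but only that of filgotinib mouse 1 well above background. The call on the gene rests on few mice. It was lost on removal of 1 of water mice 1 and 2, of DSS vehicle mice 1, 3, 4 and 5 or of filgotinib mice 1 and 5, with adjusted p from 0.0507 to 0.0924 and log2 fold changes from -1.31 to -0.95. It was also lost with the slide or the scan day as a fixed block, at -1.35 (adjusted p = 0.167) and -1.38 (adjusted p = 0.0770). Within slide 2, where 2 filgotinib mice faced 3 DSS vehicle mice, the difference was -1.35, and the values did not overlap. DSS vehicle mouse 2 lay on another slide. With so few arrays a gap says little: H2-DMa did not overlap there either, and was higher in filgotinib mice, by 0.45. The share of all genes with such a gap was not counted.

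H2-Ab1, H2-Eb1 and H2-DMb1 divided the filgotinib mice in the same way, and the other members did not all follow. H2-Ab1 had levels of 2.38, 3.47, 3.18, 3.27 and 1.63 in filgotinib mice, so mice 2, 3 and 4 were within the DSS vehicle range and mice 1 and 5 below it. Its log2 fold change was -0.52 ± 0.40 (adjusted p = 0.427). H2-Eb1 showed the same division, with 2.02 and 1.95 in mice 1 and 5 against 3.44 to 3.55 in the other mice, and a log2 fold change of -0.51 ± 0.41 (adjusted p = 0.449). H2-DMb1 read -1.95 and -2.02 in mice 1 and 5 and between -0.36 and -0.25 in the other mice, a log2 fold change of -0.79 ± 0.47 (adjusted p = 0.294). Cd74 was below the DSS vehicle range in mouse 5 alone, at 0.96, and its log2 fold change was -0.34 ± 0.39 (adjusted p = 0.610). H2-Aa had a log2 fold change of 0.05 ± 0.36 (adjusted p = 0.949) with an interval of -0.73 to 0.82, and its sign changed with single mice left out. Its filgotinib mice 2 and 4 were at -1.73 and -1.98 and mouse 5 at -3.37. H2-DMa read -1.45, -1.36, -2.10, -1.64 and -2.72 in filgotinib mice 1 to 5, so that mouse 1 was among the highest of all mice, and its log2 fold change was 0.13 ± 0.22 (adjusted p = 0.748). H2-Oa read -5.46, -3.31, -4.48, -3.34 and -4.65, well above background in mice 2 and 4 only, with a log2 fold change of -0.75 ± 0.57 (adjusted p = 0.412). H2-Ob ran from -5.26 in mouse 1 to -4.27 in mouse 5, which was the highest filgotinib mouse. Its log2 fold change was -0.10 ± 0.21 (adjusted p = 0.802), and 0.09 with normexp background correction. These intervals do not show that the genes were unaffected. Those of H2-Ab1, -1.38 to 0.34, and of H2-Eb1, H2-DMb1 and H2-Oa include the estimate for Ciita. Those of Cd74, -1.16 to 0.49, H2-Aa, H2-DMa, -0.34 to 0.59, and the dim H2-Ob, -0.54 to 0.35, lie above that estimate. Differences between members were not tested.

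Since all members are read on the same array, Ciita was also set against each of them within a mouse, a description chosen after its values were seen and given without a test. Where the difference itself lies depends on the probes, and only its shift between mice has a meaning. Ciita minus H2-Ab1 lay between -4.16 and -3.88 in filgotinib mice and between -3.45 and -2.77 in DSS vehicle mice, with no overlap. The same separation was seen against Cd74, with -3.71 to -3.42 in filgotinib mice and -2.79 to -2.14 in DSS vehicle mice. It was seen against H2-Aa as well, with 0.85 to 1.64 and 2.21 to 3.15, and against H2-DMa, with -0.05 to 1.14 and 1.46 to 2.70. Filgotinib mice 2 and 4, whose H2-Ab1 and Cd74 levels were as high as those of DSS vehicle mice, therefore had less Ciita for their H2-Ab1 than any DSS vehicle mouse. Against the other 4 tested members, H2-Eb1, H2-DMb1, H2-Oa and H2-Ob, the groups overlapped. Against the leukocyte genes Coro1a and Laptm5 they overlapped too: Ciita minus Coro1a was -1.48 to -0.73 in filgotinib mice and -1.05 to -0.21 in DSS vehicle mice, and Ciita minus Laptm5 was 0.96 to 2.32 and 1.55 to 2.21. In water mice Ciita minus H2-Ab1 ran from -3.97 to -3.15 and overlapped both other groups. Against Cd74, H2-Aa and H2-DMa every DSS vehicle mouse lay above every water mouse. The share of all genes that give such gaps when Ciita is set against them was not counted.

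**Figure D4:**
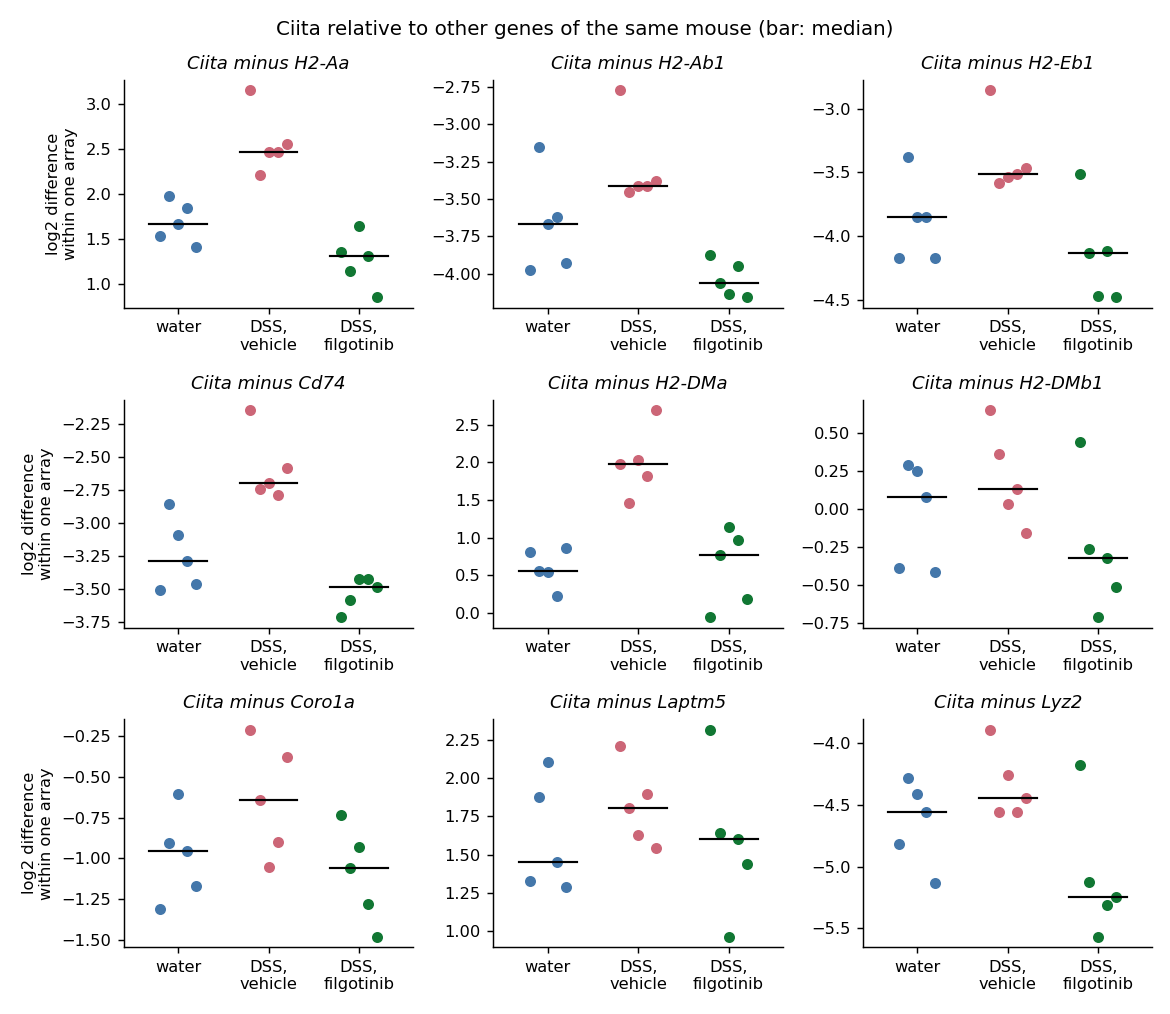
Difference between the log2 levels of Ciita and another gene in the same mouse (vertical axis) by group, with each mouse as a point and the group median as a bar. Filgotinib mice lie below all DSS vehicle mice against H2-Aa, H2-Ab1, Cd74 and H2-DMa, and overlap them against H2-Eb1, H2-DMb1, Coro1a, Laptm5 and Lyz2. How common such gaps against Ciita are among all genes was not counted.

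The third comparison asks how far the members of filgotinib mice given DSS stood from those of water mice. On the probe that stood for each gene, all 9 tested members had positive log2 fold changes, from 0.28 (H2-Ob) to 0.96 (H2-Oa), but 0 passed limma's test, where 6.42% of all genes rose and 3.41% fell. At an unadjusted p under 0.05 there was 1, H2-Aa at 0.83 ± 0.36 (adjusted p = 0.149). H2-Ab1 had 0.77 ± 0.40 (adjusted p = 0.228), Cd74 0.68 ± 0.39 (adjusted p = 0.263) and Ciita 0.40 ± 0.37 (adjusted p = 0.514). Another Ciita probe, well above background on all water arrays but on 1 filgotinib array only, had -0.45. With the mean of a gene's probes, Ciita was the lowest of the 9 members, at 0.01. The intervals of H2-Ab1, -0.10 to 1.63, and of Ciita, -0.39 to 1.19, leave room for a level as in water and for more than a doubling. The median was 0.66 over the members and 0.05 over all genes. Within scan day 1, with 4 filgotinib and 3 water mice, the 9 differences were again positive, with a median of 0.81. With the slide as a fixed block, where no slide holds both groups, 7 of the 9 were below 0, the exceptions being H2-DMa and H2-Ob. This comparison shares its mice with the other comparisons, so the values stand side by side and are no further evidence for them.

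The members moved together from mouse to mouse, also within groups. All 9 tested members lay above their own 15-mouse mean in DSS vehicle mouse 5 and in filgotinib mice 2 and 4, and 0 of 9 did so in water mice 1, 2, 3 and 4. In filgotinib mouse 5 the count was 1 of 9. Over the 15 mice, with group means subtracted, Pearson's r was 0.97 between H2-Eb1 and H2-Ab1, 0.98 between H2-DMb1 and H2-Eb1, 0.98 between Cd74 and H2-Ab1 and 0.93 between Ciita and H2-Ab1. H2-DMa was less tied to H2-Ab1, at 0.65, and H2-Ob was not, at 0.11, though its values are near background. Such ties were not particular to the members. With group means subtracted, the mean of H2-Aa, H2-Ab1, H2-Eb1 and Cd74 had r = 0.94 with Lyz2, 0.93 with Coro1a and 0.92 with Laptm5. With the leukocyte gene Ptprc it had 0.10. These correlations describe arrays that share slides and scaling, and r has no test here.

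The genes most like Ciita over the 15 mice, members aside, were Itgb7 and Cyfip2 (r = 0.96 each), Prkcb and Acap1 (0.94 each) and Pla2g2d (0.93). Itgb7 is an integrin chain of gut-homing lymphocytes and Prkcb a signalling kinase of B cells. The genes most like the mean of H2-Aa, H2-Ab1, H2-Eb1 and Cd74 were Lyz2, Irf5 and Tyrobp (0.96 each), Lyz1 (0.95) and Wdfy4 (0.95). Lyz2 and Tyrobp are typical of myeloid cells, and Wdfy4 is known for cross-presentation in dendritic cells. Ciita itself had r = 0.87 with that mean. Unlike those of the paragraph before, these values keep the differences between groups. With group means subtracted, Ciita had 0.93 with that mean, and Itgb7 and Cyfip2 had 0.91 and 0.89 with Ciita.

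Some markers of the cells that carry class II were higher in DSS vehicle mice and others were not. In bulk tissue fewer cells of a type and less RNA per cell cannot be told apart, and the part of cell composition in the results above was not tested. Between DSS vehicle and water mice, 3 of 9 B cell genes tested rose and 0 fell, with a list median log2 fold change of 1.32. Ms4a1, the CD20 antigen, rose by 2.09 ± 0.64 (adjusted p = 0.0355), while Pax5, which defines the lineage, had -0.01 (adjusted p = 0.975) and Spib -0.73 (adjusted p = 0.0927). Of 7 dendritic cell genes tested, 2 rose, namely Ccr7, the receptor that leads mature dendritic cells to lymph nodes, by 2.14 ± 0.37 (adjusted p = 0.00180) and the integrin Itgax by 1.31 ± 0.40 (adjusted p = 0.0349). The defining genes Zbtb46, Xcr1 and Clec9a were not tested, being too dim. Of 14 macrophage and monocyte genes 1 rose, Ly6c2, a smaller share than among all genes, with a list median of 0.73. Lyz2 had 1.37 ± 0.47 (adjusted p = 0.0555), and the macrophage receptor Cd163 had -0.73 (adjusted p = 0.658). Of 8 T cell genes 1 rose, of 6 plasma cell genes 1 (Prdm1) and of 3 innate lymphoid genes 1 (Il7r), where 10.8% of all genes rose. In lists this short, 1 gene does not show that a cell type rose. Of 3 general leukocyte genes 2 rose, Laptm5 by 1.46 and Coro1a by 1.31. The plasma cell genes Jchain, Derl3 and Mzb1 had log2 fold changes of -1.18, -0.63 and -0.39 (adjusted p = 0.442, 0.407 and 0.738). Ptprc, the CD45 gene, had 0.09 (adjusted p = 0.426) on its brightest probe.

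The per-mouse means of the dendritic cell, macrophage and B cell lists overlapped between all groups. That of the 8 T cell genes ran from -3.26 to -2.63 in water mice and from -2.61 to -1.67 in DSS vehicle mice. These 2 groups did not overlap. They were also apart for colon epithelium, at up to 6.57 in water mice and from 6.60 in DSS vehicle mice. The means of the interferon gamma, class I and costimulation lists described below were apart between them as well. Of single genes, 9.84% lay higher in every DSS vehicle mouse than in every water mouse. The mean over the 7 dendritic cell genes ran from -2.98 to -2.30 in water mice, from -2.37 to -1.05 in DSS vehicle mice and from -3.11 to -2.05 in filgotinib mice. That over the 14 macrophage and monocyte genes ran from -0.65 to 0.48, from 0.07 to 1.59 and from -0.78 to 1.18, and that over the 9 B cell genes from -3.25 to -2.49, from -3.06 to -1.11 and from -3.22 to -1.31. Between filgotinib and DSS vehicle mice, Ccr7 fell by 1.28 on the log2 scale (adjusted p = 0.0390) and Cd22, an inhibitory B cell receptor, by 0.30 (adjusted p = 0.00472), and 0 of the macrophage, plasma cell, T cell, innate lymphoid and leukocyte genes passed in either direction. Laptm5 had -1.04 ± 0.46 (adjusted p = 0.152). Markers of colon epithelium rose slightly with DSS, 7 of 12 with a list median of 0.26, and 0 passed between filgotinib and DSS vehicle mice.

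**Figure D5:**
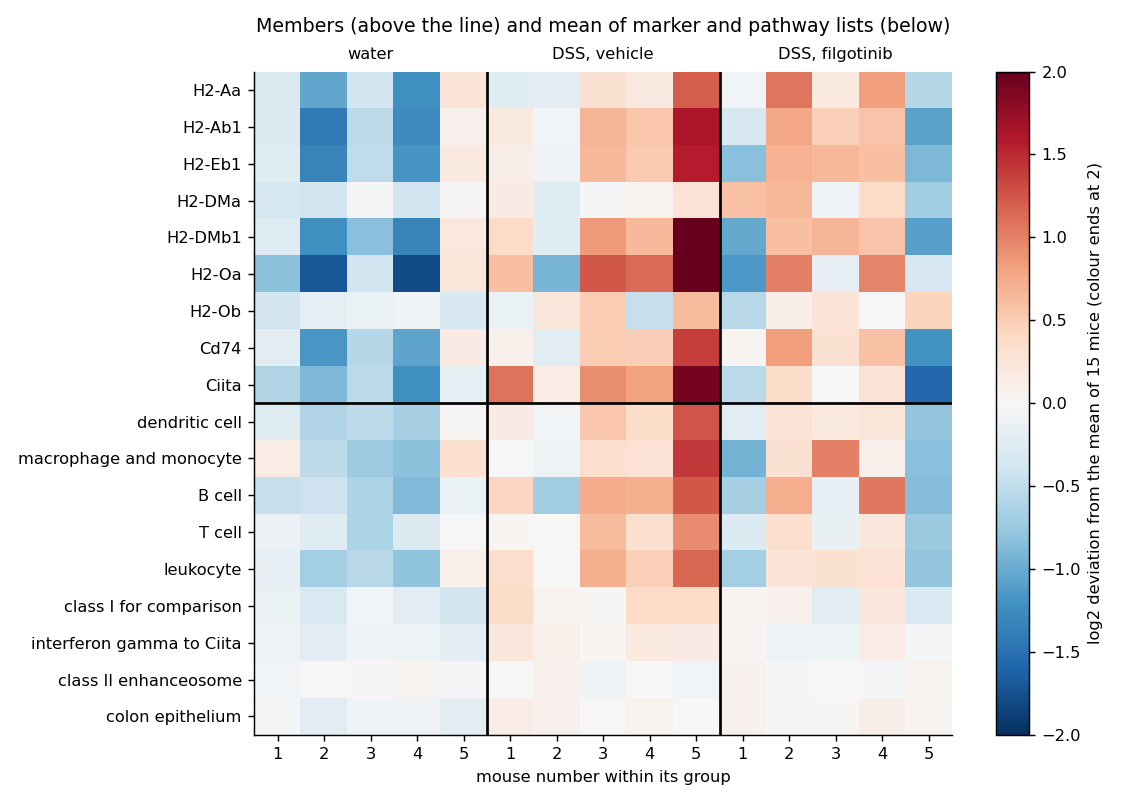
Deviation of each member (rows above the line) and of the mean of each marker or pathway list (rows below) from its mean over 15 mice, on the log2 scale, with mice in columns by group. DSS vehicle mouse 5 is high and water mice 2 and 4 are low for most members and for the dendritic, macrophage, B cell and leukocyte lists, while the epithelial and enhanceosome lists vary little.

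Of 9 genes between interferon gamma and Ciita that were tested, 3 rose with DSS and 0 fell. Among them, Irf1, a factor that acts on a Ciita promoter, rose by 0.60 ± 0.12 (adjusted p = 0.00457) and the feedback inhibitor Socs1 by 0.48 ± 0.13 (adjusted p = 0.0191). Ifng itself was not tested, being too dim. Between filgotinib and DSS vehicle mice none of the 9 passed, with Irf1 at -0.12 ± 0.12 (adjusted p = 0.576). Of the 7 subunits that bind the X and Y boxes, Rfxap fell by 0.42 with DSS (adjusted p = 0.00400) and Nfyc rose by 0.17 (adjusted p = 0.0427). Rfx5 had 0.27 ± 0.15 (adjusted p = 0.235).

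Of 10 endosomal processing genes, 3 rose with DSS: legumain, Lgmn, a protease of the invariant chain pathway, by 0.82 ± 0.13 (adjusted p = 0.00117), Psap by 0.23 and Ctsb by 0.21. Ctss, the main protease of the invariant chain in B and dendritic cells, had -0.03 (adjusted p = 0.901), and the cathepsin gene Ctsh rose by 0.40 in filgotinib compared with DSS vehicle mice (adjusted p = 0.0225). Of the 3 genes of class II turnover, Marchf8, a ubiquitin ligase, rose by 0.30 with DSS (adjusted p = 0.00821). None of 4 genes for costimulation or class II recognition passed, with Cd86 at 1.69 ± 0.60 (adjusted p = 0.0634) and well above background on 2 DSS vehicle arrays.

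The class I pathway was listed for comparison, and 4 of 9 genes rose with DSS. Nlrc5, the activator of class I genes and a relative of Ciita, rose by 1.82 ± 0.39 (adjusted p = 0.00616). The immunoproteasome subunit Psmb9 rose by 0.78 and fell by 0.56 in filgotinib compared with DSS vehicle mice (adjusted p = 0.00906), where Nlrc5 had -1.13 ± 0.39 (adjusted p = 0.0753).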

How the data were processed

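Each of the 15 arrays was read in 1 colour, and the deposited intensity of a spot is its detrended signal less background (Agilent Feature Extraction 11.5.1.1, per the file headers). The file headers give mm9 as the build of probe coordinates; that of DSS vehicle mouse 3 names none. A log2 table that the authors deposited served as an alternative, with limma named in the submitters' processing notes and no normalization given in the sources used here.

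Each intensity was put on the log2 scale relative to the 75th percentile of its array. Control spots and 101 probes with outlier marks were left out. Probes well above background on 5 or more arrays were kept, and the brightest of these stood for its gene. Groups were compared with limma 3.58.1 in R 4.3.3 (lmFit, eBayes, two-sided, 1 fit over 15 arrays, Benjamini-Hochberg over 22012 genes), called at an adjusted p under 0.05. Code was tested on simulated data. Number of arrays limits precision.

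The members, the pathway and marker lists and the rule for named genes (all members, the 2 to 4 listed genes with the largest change under DSS, and the 5 genes most like Ciita or the chains) were chosen with earlier results of these data known. Pax5, Ctss, Ctsb, Ctsh, Cd22, Spib, Cd163 and H2-Ea-ps were named after their values were seen. Scaling, background correction, the dim-probe filter, the probe rule, slide and scan day as blocks, and each mouse left out were tried as alternatives. Replicate numbers do not pair mice: of 15 same-number pairs, 5 had a correlation of deviations over 0.1. Tables and figures used Python 3.11.15, pandas 2.3.3 and matplotlib 3.10.9. Some listed genes are not reported here by name.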

Additional observations from a re-analysis of the deposited data

How the results depend on the processing

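The 4 members called higher in DSS vehicle against water became 2 with arrays scaled to the median, 2 with the mean of a gene's probes, 1 without the filter on dim probes, 1 with the slide as a random block, 1 with the scan day as a block and 0 with the slide as a fixed block, and from 1 to 5 when a mouse was left out. Among all tested genes, 2369 were higher in the main fit. Under these settings, in the same order, 956, 2044, 2225 (of 37016), 2033, 1942 and 34 were higher. The 1 member called lower in filgotinib against DSS vehicle became 0 without the filter on dim probes, 0 with the arrays of these 2 groups alone, 0 with the slide as a fixed block, 0 with the scan day as a block and 0 or 1 when a mouse was left out. Of all genes, 998 were lower in the main fit and, in the same order, 536 (of 37016), 522, 203 and 1140. Of the members called higher in filgotinib with DSS against water, normexp background correction gave 3 in place of 0, namely H2-Aa and the dim H2-Oa and H2-Ob. With it 3700 of all 22012 genes were higher, in place of 1414. With the replicate number as a block, which pairs no mice here, 1 was higher in the first comparison and 0 lower in the second, and 1 of 15 mice correlated best with its own number. H2-Oa turned to -0.85 in DSS vehicle against water with the slide as a fixed block, which compares 1 mouse with 2. H2-Ob had no value in the deposited table, nor H2-Ob and H2-Oa when a probe had to be above background on all arrays. Of the single-gene values under alternatives, 651 kept their side of the threshold, 59 lost and 9 gained a call. In DSS vehicle against water, H2-Eb1 gained a call under 4 of 27 alternatives, Cd74 under 1 of 27 and H2-Ob under 1 of 25. There H2-Ab1 lost its call under 13 of 27, H2-DMb1 under 16 of 27 and H2-Oa under 16 of 26. Ciita kept its call against water under 26 of 27 alternatives and its call under filgotinib in 14 of 27, with log2 fold changes from -1.49 to -0.95 over all 27. Over all genes, the share of called genes that were higher was 56.1% in DSS vehicle against water and 37.9% to 66.5% under other scalings or background corrections, 60.0% and 54.9% to 73.6% in filgotinib against DSS vehicle, and 65.3% and 48.1% to 83.4% in filgotinib with DSS against water. Dim signal limits H2-Oa, H2-Ob and H2-DMb2. The causes of these changes were not tested.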
